A study of Mus musculus with 16 samples.

Results

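The comparison described here set embryoid bodies of Taf4a-/- embryonic stem cells (ESCs) against wild-type (WT) ones at EB8, the latest stage of the series. Its members were the 4 EB8 libraries, chosen by the genotype and stage on the labels, out of 16 libraries in all, and every gene of the table was included. The table held 27807 genes, of which 16124 had a mean of at least 10 normalised counts over the 16 libraries and were tested.

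The study asked what ESCs without Taf4, a subunit of the general transcription factor TFIID, can still do when they are driven towards glutamatergic neurons. WT and Taf4a-/- lines, 2 of each genotype, came from blastocysts of heterozygous crosses and were kept on growth-arrested embryonic fibroblasts as feeder cells. Cells were then aggregated into embryoid bodies and collected ahead of the retinoic acid treatment (EB4), 1 day into it (EB5) and near its end (EB8), and ESCs were the fourth stage. Each genotype and stage had 2 libraries of polyadenylated RNA, and all 4 EB8 libraries were labelled as neural precursor cells that had received retinoic acid. WT below stands for the EB8 libraries labelled wild-type and KO for those labelled Taf4a-/-, which carry the null allele in every cell from the start. Nothing in the labels says whether the libraries of a group came from separate cultures of the same line, so the p-values measure the spread between these libraries.

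TFIID carries the TATA-binding protein to promoters and starts the assembly of RNA polymerase II there, and Taf4 holds its core together. Retinoic acid turns embryoid bodies into neural tube-like tissue: pluripotency factors are shut off, radial glia-like progenitors take on dorsal, intermediate or ventral fates through homeobox factors, proneural bHLH factors push cells out of division, and the daughter cells switch on neuronal cytoskeleton, adhesion and synapse genes. Hox genes are switched on in the order of their place in the clusters, with anterior genes answering retinoic acid most directly.

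The values are normalised read counts, namely the reads of a gene divided by the size factor of its library. Depth ran from 22442118 to 40711826 reads per library over the series and from 22442118 to 25792412 at EB8. A fold change is given on the log2(normalised count + 1) scale with its standard error (SE), which understates the change of genes with few reads, and n is 2 libraries per genotype throughout. The test was limma over all genes with Benjamini-Hochberg adjustment, and a gene is called higher or lower in KO where the adjusted p was under 0.05. A gene with 3 reads or fewer in both libraries of a genotype counts here as at the floor, which covers counting error only.

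Some differences between the libraries touch everything that follows. Taf4a itself had 1591 and 1939.7 in WT versus 2341 and 1973 in KO (a log2 change of 0.29, with limma adjusted p 0.194). The null allele lacks only part of the exons, so a count per gene does not check the label. The Y-linked Ddx3y had 572 and 174 in WT versus 35.9 and 7.5 in KO, so that the Y chromosome content of the lines and the genotype cannot be told apart. Xist, the RNA of the inactive X chromosome, had 3000.8 in KO replicate 2 and at most 45.4 in the other 3 libraries. Of 6 tested genes of X and Y kept as a check, Uty passed (log2 change -4.30, adjusted p 0.0297) and the other 5 did not, and the call of Uty was lost with any 1 library left out (adjusted p up to 0.16). For each chromosome a level was taken, namely the median over its genes of the log2 value less the gene's mean over the 16 libraries. Genes with a mean of at least 50 were used, and each library was first centred on its own median. The level of chromosome 8 was 0.39 in WT replicate 1 and between -0.12 and 0.00 in the other 3. That of chromosome 11 was 0.27 in KO replicate 1 and between -0.09 and -0.08 in the other 3, and that of X was 0.39 in KO replicate 2 and between -0.30 and -0.19 in the other 3. The part of these levels in the results was not tested beyond a count without those chromosomes, given below. The 16 fibroblast and feeder cell markers summed to 8277 and 6981.6 in WT versus 4267.7 and 8448.4 in KO, ranges that overlap, and Col1a1, the fibrillar collagen of fibroblasts, had 334 and 578 in WT versus 241 and 802 in KO.

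At EB8, 1677 genes (10.4% of those tested) were higher and 2020 (12.5%) were lower in KO, and 5803 had an unadjusted limma p under 0.05. Both KO values lay above both WT values for 30.4% of the tested genes and below them for 33.5%, and the values of every called gene were separated in this way. Among the called genes the median log2 change was 1.86 for the higher and -1.49 for the lower ones. Of them 792 rose and 731 fell by at least 2, and 173 rose and 195 fell by at least 4. Small changes pass less readily with 2 libraries per group, so these sizes reflect the threshold too. Of the lower genes 48 were at the floor in both KO libraries, and of the higher genes 176 were at the floor in both WT libraries. Over all tested genes the median was -0.03. The shares of 10.4% higher and 12.5% lower are the background for every count of a list below. Leaving out WT replicate 1, WT replicate 2, KO replicate 1 and KO replicate 2 in turn brought the total of 3697 to 2372, 1907, 2086 and 2408, and counts with 1 library left out are given in this order throughout. Without the genes of chromosomes X, Y, 8 and 11 the total was 3297, and upper-quartile rescaling turned the split from 1677 higher and 2020 lower to 2278 and 1615.

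By gene type, 1540 higher and 1941 lower genes coded for protein, out of 14677 tested, and 137 and 79 did not, out of 1447. Among the latter were 345 tested pseudogenes, of which 34 were higher and 10 lower. Under the limits set for leading genes (protein-coding, named, off X and Y, not overlapping between genotypes and well counted in the higher one), the 10 largest rises were those of Nanog, Dppa2, Dppa5a and Lefty2, described further on, and Gstp2, a glutathione transferase (log2 change 5.54), Mobp, a myelin-associated protein (5.35), Cd84, a receptor of leukocytes (5.33), Aqp3, a water and glycerol channel (5.29), Cyct, the testis form of cytochrome c (5.15), and Slc15a1, a peptide transporter (5.08). Aqp3 had 146 and 184 in WT versus 6766 and 6144 in KO (SE 0.80, adjusted p 0.000736). Cyct had 13.7 and 22.2 in WT versus 645 and 659 in KO (SE 0.75, adjusted p 0.000624). Cd84 had 28.4 and 49.8 in WT versus 754 and 3179 in KO (adjusted p 0.0082), and its call ended without WT replicate 1 (adjusted p 0.0533) or KO replicate 2 (0.0712). The 10 largest falls were led by the homeobox and forkhead factors Dbx1, Msx3 and Foxb1, described below. After them came Ppp1r17, an inhibitor of protein phosphatases known from Purkinje cells, with 360.2 and 288 in WT versus 1.1 and 0 in KO (lower by at least 102-fold), then Neurod4, Hk3, St18, Neurog2, Nhlh2 and Vit. Hk3, a hexokinase whose exons overlap those of Unc5a, had 748 and 917 in WT versus 6.3 and 2.1 in KO (log2 change -7.44), and Vit, a matrix protein, had 928 and 694 in WT versus 3.2 and 6.4 in KO (-7.18). Fewer cells of a type and less RNA per cell cannot be told apart in such libraries, here or in any result below.

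**Figure D1:**
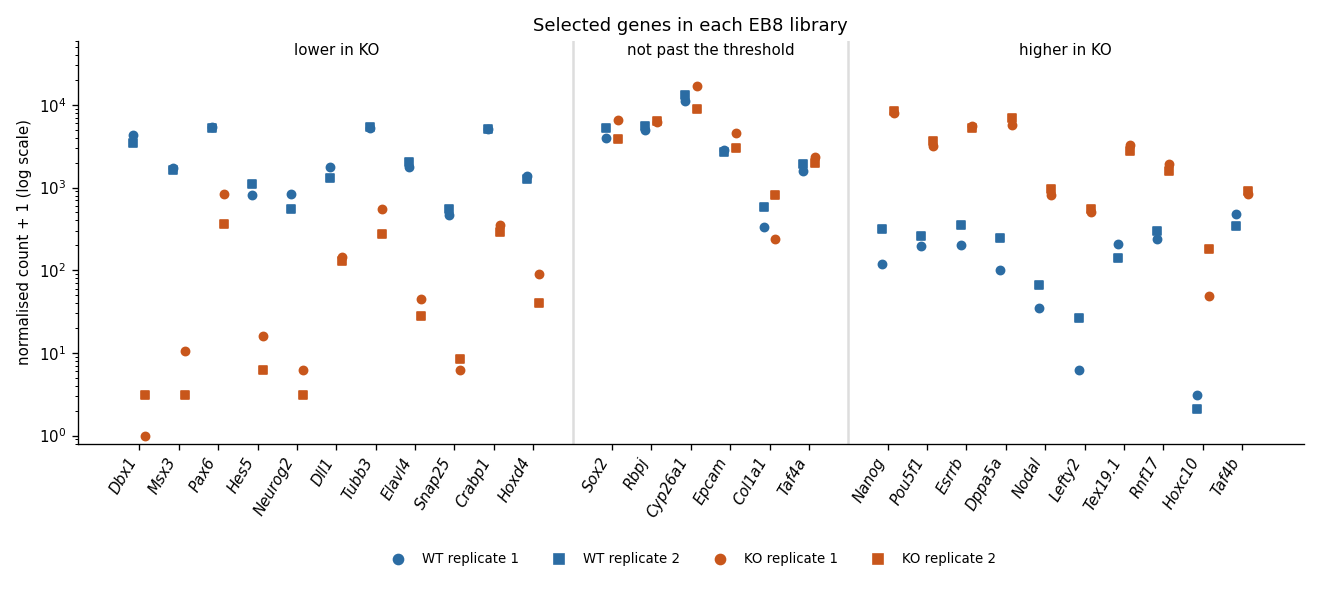
Normalised read count + 1 (log axis) of 27 genes in each of the 4 EB8 libraries, with WT in blue, KO in orange, replicate 1 as circles and replicate 2 as squares. In the panels of genes called lower and higher the orange and blue points lie apart for every gene, by about 1228-fold or more for Dbx1 and by least for Taf4b, and in the panel of genes not past the threshold they lie close together or overlap.

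The transcription factors that place progenitors along the dorsoventral axis of the neural tube were lower in KO than in WT for most members. Of 24 tested members of this list, 16 were lower and 1 was higher in KO, with a median log2 change of -3.38, and leaving out 1 library gave 12, 13, 12 and 11 past the threshold. The summed level of the list was 26043.9 and 23312.1 in WT versus 4313.1 and 2393.6 in KO. By position, 7 of 7 tested factors of the intermediate zone, 3 of 8 of the roof plate and dorsal zone, 4 of 4 of the floor plate and 2 of 5 of the ventral zone were lower, and the exception was the ventral factor Nkx2-9.

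Dbx1, the homeobox factor that gives intermediate progenitors their identity, had normalised counts of 4360.1 and 3448 in WT versus 0 and 2.1 in KO. Both KO libraries were at the floor, and the level was at least 1228-fold lower than in WT. Msx3, which marks dorsal progenitors, had 1728 and 1648 in WT versus 9.5 and 2.1 in KO (log2 change -8.20, SE 0.75, limma adjusted p 4.27e-05). Both genes are among the 10 largest falls, which were picked for values that do not overlap, so this separation is part of the choice. In their promoters (RefSeq, build GRCm38.p6, the 120 bases before the start of the gene, 5′ to 3′ along the gene) the capitals mark TATAAA, the letters of a TATA box, read on either strand. In Dbx1, chr7:49636836-49636955, minus strand, the match lies along the gene and begins 45 bases before the start. In Msx3, chr7:140049089-140049208, minus strand, it lies on the opposite strand, 28 bases before the start. They are shown because TFIID holds the protein that binds these letters, and a match is a description, not a site.
Dbx1: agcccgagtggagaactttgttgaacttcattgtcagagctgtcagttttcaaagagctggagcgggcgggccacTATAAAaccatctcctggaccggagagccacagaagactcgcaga
Msx3: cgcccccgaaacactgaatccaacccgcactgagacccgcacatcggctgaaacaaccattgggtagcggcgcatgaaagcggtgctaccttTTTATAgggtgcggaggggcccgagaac

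Over the promoters that RefSeq gives for the tested genes (250 bases before to 50 after the start), TATAAA on either strand was found in 7.27% of 10737. The share was 9.43% of the 1114 promoters of genes higher in KO and 6.81% of the 1381 of genes lower in KO, so that the lower genes as a set held the letters no more often than all tested genes did. GGGCGG, the letters of a GC box, was found in 63.8% of all, 58.6% of the higher and 65.4% of the lower set. The median GC content was 61%, 59.3% and 63%. These shares are descriptions of the sets, with no test.

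Other intermediate factors followed Dbx1. Irx3, an Iroquois factor that limits the ventral zone, had 3619.8 and 2253 in WT versus 444 and 139.5 in KO (log2 change -3.51, SE 0.61, limma adjusted p 0.00171). Dbx2, a close relative of Dbx1, had 122 and 44.5 in WT versus 7.4 and 4.3 in KO (log2 change -3.49, SE 0.91, limma adjusted p 0.0161). Irx5 had 1664 and 867 in WT versus 62.2 and 23.4 in KO (log2 change -4.93, SE 0.65, limma adjusted p 0.000351), and Foxb1, a forkhead factor whose exons overlap those of B230323A14Rik, was at least 216-fold lower. Dorsally Pax3 had 1447 and 1373 in WT versus 79.1 and 33 in KO (log2 change -4.76) and Pax7 had 793 and 1012 in WT versus 74.9 and 21.3 in KO (-4.45), both paired-box factors of dorsal progenitors. Msx1 (log2 change -1.92, adjusted p 0.0946), Olig3 (-1.55, 0.268), Lmx1a (-0.78, 0.655) and Lmx1b (1.33, 0.118) did not pass. With 1 library left out, calls were lost for Dbx2 (WT replicate 1 or KO replicate 1 or KO replicate 2, limma adjusted p up to 0.119).

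Ventrally, the floor plate factor Foxa2 had 576 and 339.9 in WT versus 40.1 and 38.3 in KO (log2 change -3.46, SE 0.72, limma adjusted p 0.00513), and its relative Foxa1 had 1564 and 1038 in WT versus 194 and 216 in KO (-2.63, 0.000584). Shh, the floor plate morphogen, had 104 and 176 in WT versus 4.2 and 4.3 in KO (log2 change -4.70, SE 0.70, limma adjusted p 0.000717). Nkx6-1, a factor of ventral progenitors, had 123 and 52.9 in WT versus 4.2 and 5.3 in KO (log2 change -3.83, adjusted p 0.018). The motor neuron progenitor factor Olig2 (173 and 289 in WT versus 31.7 and 41.5 in KO, adjusted p 0.349) and Nkx2-2 (8.4 and 27.5 in WT versus 0 and 4.3 in KO, 0.0965) did not pass. Nkx2-9 had 21 and 11.6 in WT versus 63.3 and 72.4 in KO and was called higher (log2 change 2.04, adjusted p 0.0198). Leaving out 1 library ended the calls of Nkx6-1 (WT replicate 1 or KO replicate 1 or KO replicate 2, limma adjusted p up to 0.115) and Nkx2-9 (WT replicate 2 or KO replicate 1 or KO replicate 2, limma adjusted p up to 0.136).

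**Figure D2:**
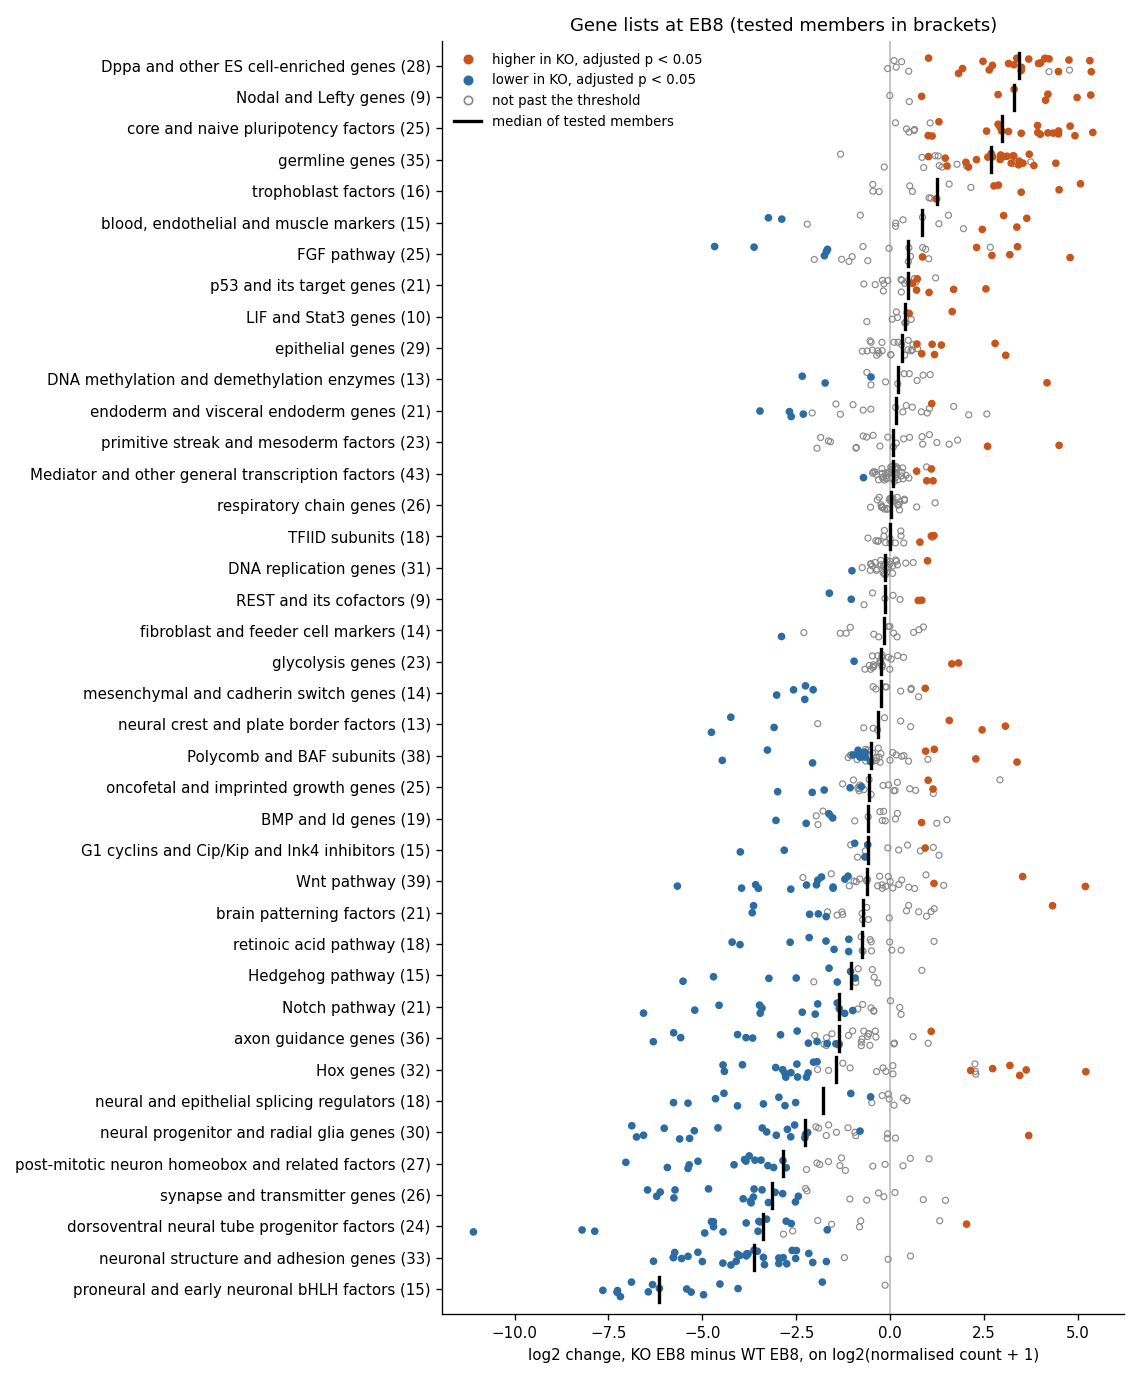
Log2 change at EB8 (KO minus WT, log2(normalised count + 1) scale) of every tested member of 40 gene lists, 1 row per list, with filled points past the threshold (orange higher, blue lower in KO), open points not past it and a black bar at the median. The filled blue points crowd the rows of progenitor, proneural, neuronal and synapse genes, the filled orange ones the rows of pluripotency, Dppa, Nodal and Lefty, and germline genes, and the respiratory chain row holds open points only.

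The proneural and early neuronal factors had the lowest median of the lists described here: 14 of 15 tested members were lower and none was higher, with a median log2 change of -6.14. The list summed to 16503.6 and 19739.8 normalised counts in the WT libraries and 1123.6 and 526.2 in KO, and leaving out 1 library gave 14, 13, 14 and 13 past the threshold. Neurog2, which drives motor neuron and interneuron birth, had 831 and 553 in WT versus 5.3 and 2.1 in KO (log2 change -7.26, SE 0.99, limma adjusted p 0.000452). Every listed proneural factor that was tested apart from Olig1 (log2 change -0.13, adjusted p 0.962) was lower, including Neurog1 (-4.53) and Ptf1a (-4.05), which is needed for inhibitory neurons of the dorsal cord. Calls that ended when 1 library was left out were those of Ptf1a (WT replicate 2 or KO replicate 2, limma adjusted p up to 0.0875, log2 change -2.53 without KO replicate 2).

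The factors that act after them were lower as well. Neurod4 had 922 and 944 in WT versus 9.5 and 1.1 in KO (log2 change -7.65, SE 1.29, limma adjusted p 0.0015). Myt1, a zinc finger factor of newborn neurons, had 1414 and 1882 in WT versus 19 and 8.5 in KO (log2 change -6.89, SE 0.79, limma adjusted p 0.000156), and its relative St18 had 716 and 727 in WT versus 3.2 and 4.3 in KO (log2 change -7.27, SE 0.76, limma adjusted p 9.18e-05). In these 3 genes the KO values lay between 1.1 and 19 and the WT values between 716 and 1882. Insm1, the zinc finger factor of delaminating progenitors, had 883 and 2056 in WT versus 116 and 14.9 in KO (log2 change -4.97), and the Snail-related Scrt1 and Scrt2 changed by -6.44 and -6.33.

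In the Notch pathway, through which newborn neurons hold back their neighbours, 13 of 21 tested genes were lower and none was higher, with a median log2 change of -1.35 and counts of 12, 10, 10 and 12 with 1 library left out. Among ligands, Dll1 had 1762 and 1301 in WT versus 144 and 130.0 in KO (log2 change -3.46, SE 0.38, limma adjusted p 0.000134). Dll3, a divergent ligand that acts within the cell, had 884 and 1027 in WT versus 69.6 and 22.4 in KO (log2 change -4.55, SE 0.68, limma adjusted p 0.000716). Jag1 was also lower (-1.99), and Dll4 (-0.43, adjusted p 0.784) and Jag2 (-0.50, 0.395) did not pass. The receptor Notch1 had 3937 and 4290.2 in WT versus 1777 and 1463 in KO (log2 change -1.35, SE 0.26, limma adjusted p 0.00313). Notch2 (log2 change 0.30, adjusted p 0.26) and Rbpj, the DNA-binding partner of all Notch receptors, with 5029 and 5494 in WT versus 6231 and 6369 in KO (adjusted p 0.328), did not pass. Among targets Hes5, the main Notch target of neural progenitors, had 811 and 1101 in WT versus 14.8 and 5.3 in KO (log2 change -6.57, SE 0.81, limma adjusted p 0.000239). Hes3 was at least 17.4-fold lower, Heyl changed by -3.47, and Hes1, which many tissues use, by -0.99 (adjusted p 0.019). Of 6 tested targets 5 were lower, and among those named here Hes5, Hes3 and Heyl fell further than Hes1. Among the genes named here, the call ended with 1 library left out for Heyl (WT replicate 1 or WT replicate 2 or KO replicate 1, limma adjusted p up to 0.0942) and Hes1 (WT replicate 2 or KO replicate 1 or KO replicate 2, limma adjusted p up to 0.159).

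Genes of neural progenitors and radial glia were set beside the label of the libraries. Of 30 tested, 18 were lower and 1 was higher in KO, with a median log2 change of -2.26 and 17, 15, 19 and 16 past the threshold with 1 library left out. Fabp7, the lipid carrier of radial glia, had 354 and 281 in WT versus 3.2 and 1.1 in KO (lower by at least 99.7-fold, limma adjusted p 0.000264). Sox2, which both pluripotent cells and neural progenitors use, had 3950.5 and 5241 in WT versus 6517 and 3904 in KO (log2 change 0.15, adjusted p 0.697), whereas its relative Sox3 had 3286 and 3244 in WT versus 155 and 118 in KO (log2 change -4.58, SE 0.45, limma adjusted p 6.65e-05). Of these 3 genes, Fabp7 and Sox3 were thus far below the WT level in both KO libraries that are labelled as neural precursors, and Sox2 was not. They were named with earlier results known and do not stand for the whole list, of which 11 tested genes did not pass. Of the neural POU factors, Pou3f2 had 1542 and 2123 in WT versus 55.9 and 12.8 in KO (log2 change -6.01), Pou3f3 2289 and 2234 in WT versus 84.4 and 42.6 in KO (-5.21) and Pou3f4 887 and 459.5 in WT versus 8.4 and 2.1 in KO (-6.88). Rfx4, a factor of neural tube cilia, changed by -5.60 and Ednrb, an endothelin receptor of radial glia, by -5.34. Vim, the intermediate filament of progenitors and mesenchyme, had 20563 and 19598 in WT versus 3909 and 4443 in KO (log2 change -2.27, SE 0.26, limma adjusted p 0.000176). Nes (12104 and 7454 in WT versus 2831 and 3312 in KO, adjusted p 0.0582) and Sox9 (1525 and 2483 in WT versus 772 and 352 in KO, 0.181) did not pass.

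The homeobox and related factors of post-mitotic neurons were lower for 15 of 27 tested genes and higher for none (median log2 change -2.85; 13, 11, 12 and 11 past with 1 library left out). Onecut1, a factor of newborn motor neurons and interneurons, had 236 and 299 in WT versus 33.8 and 8.5 in KO (log2 change -3.87, SE 0.70, limma adjusted p 0.00213). Lbx1, a factor of dorsal interneurons, changed by -5.38, and Pax5, a paired-box factor of the midbrain-hindbrain border, by -5.35. Early B cell factors, which neurons use despite their name, changed by -5.12 for Ebf2 and -4.15 for Ebf3. Isl1, the motor neuron LIM factor, had 46.2 and 142 in WT versus 16.9 and 24.5 in KO and did not pass (adjusted p 0.078), and neither did Pou4f1 or Phox2a (adjusted p 0.5 and 0.935).

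Genes of neuronal structure and adhesion were lower almost throughout: 30 of 33 tested were lower and none was higher, with a median log2 change of -3.62 and 29, 26, 26 and 30 past the threshold with 1 library left out. They summed to 88394.6 and 113178 normalised counts in the WT libraries and 10982.2 and 10831.4 in KO. Stmn3, a tubulin-binding stathmin, had 429.5 and 878 in WT versus 9.5 and 11.7 in KO (log2 change -5.73, SE 0.54, limma adjusted p 4.69e-05). Ina, the neuronal intermediate filament alpha-internexin, had 4131 and 4447 in WT versus 319 and 119 in KO (log2 change -4.45, SE 0.51, limma adjusted p 0.000152). Tagln3 had 1849 and 1599.8 in WT versus 38 and 24.5 in KO (log2 change -5.77, SE 0.73, limma adjusted p 0.000292). In these 3 genes the KO libraries held between 9.5 and 319 normalised counts and the WT libraries between 429.5 and 4447. Elavl4 and Rbfox3, RNA-binding proteins that mark neurons, changed by -5.77 and -5.38, and Celf3, another, by -5.55. Cntn2, an axonal adhesion protein, had 3116 and 4959 in WT versus 152 and 98 in KO (adjusted p 2.51e-05). Nrxn3, a neurexin, changed by -5.12. The 3 tested genes that did not pass were Mapt (tau, -1.21, adjusted p 0.234), Nefh (0.55, 0.401) and Celf5 (-0.05, 0.931).

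Synapse and transmitter genes were lower for 17 of 26 tested, with none higher, a median of -3.15 (-2.96 with genes at the floor set at their bound) and counts of 16, 12, 13 and 17. Raising the filter on low values to a mean of 50 over all 16 libraries left 10. Snap25, of the vesicle fusion machinery, had 461 and 555 in WT versus 5.3 and 7.5 in KO (log2 change -6.12, SE 0.53, limma adjusted p 3.03e-05). Slc6a5, the glycine transporter of inhibitory spinal neurons, had 277 and 556 in WT versus 5.3 and 7.5 in KO (log2 change -5.76, SE 0.82, limma adjusted p 0.000548), and Gad1, which makes GABA, changed by -3.24. Gria1, a glutamate receptor subunit, had 121 and 130.2 in WT versus 0 and 1.1 in KO (lower by at least 39.5-fold, limma adjusted p 0.000164), and Chrna3, a nicotinic receptor subunit, changed by -4.83. Slc17a6, the glutamate transporter of the neurons that the protocol aims at, was under the filter and was not tested. The release genes Vamp2 (1315 and 1504 in WT versus 1204 and 1080.2 in KO, adjusted p 0.389) and Syn1 (208 and 238 in WT versus 108 and 366 in KO, 0.893) did not pass.

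Neural splicing regulators were lower for 11 of 12 tested, while none of 4 general regulators passed: Ptbp1, which represses neural exons in other cells, had 14270.0 and 13988 in WT versus 13465 and 14078 in KO (log2 change -0.04, adjusted p 0.905). Srrm4, which includes neural microexons, had 1437 and 1889 in WT versus 103 and 40.5 in KO (log2 change -4.65, SE 0.52, limma adjusted p 0.000144). Ptbp2, the neural relative of Ptbp1, had 7759 and 7840.2 in WT versus 958 and 1316 in KO (log2 change -2.80, SE 0.22, limma adjusted p 1.92e-05). Rest, the repressor of neuronal genes in other cells, had 2338 and 2428 in WT versus 4444 and 4135 in KO and was called higher (log2 change 0.85, SE 0.16, limma adjusted p 0.00329). The deacetylase Hdac1 (0.76) was higher too, whereas the cofactor Rcor2 (-1.61) and Hdac2 (-1.03) were lower. With 1 library left out, calls were lost for Hdac1 (WT replicate 1, limma adjusted p 0.0539). The whole splicing list had 10, 9, 9 and 10 members past the threshold with 1 library left out, and the REST list had 3, 4, 4 and 4 against 4 with all libraries.

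Axon guidance genes fell in 13 of 36 tested and rose in 1, with a median log2 change of -1.35 and counts of 9, 8, 10 and 9. Robo3, the Slit receptor variant of commissural axons, had 3946 and 3243 in WT versus 63.3 and 30.9 in KO (log2 change -6.30, SE 0.69, limma adjusted p 0.000129). Epha3, an ephrin receptor, had 2045 and 3834 in WT versus 59.1 and 56.5 in KO (log2 change -5.57, SE 1.02, limma adjusted p 0.00243). Unc5a, a netrin receptor whose exons overlap those of Hk3, changed by -5.76. The netrin ligand Ntn1 had 2322 and 1978 in WT versus 785 and 577 in KO (log2 change -1.67, adjusted p 0.0137). Leaving out 1 library ended the calls of Ntn1 (WT replicate 1 or WT replicate 2 or KO replicate 2, limma adjusted p up to 0.0886). The 1 gene called higher was Unc5b, a receptor related to Unc5a, and its call did not hold under every setting. Values overlapped for 2 other receptors. Nrp2 had 1406 and 1684 in WT versus 1549 and 912 in KO (adjusted p 0.594). Plxna1 had 7114 and 8624 in WT versus 4702 and 7608 in KO (0.518).

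Both genotypes had received retinoic acid, and its receptors and enzymes were compared next. Of 18 tested genes of the pathway 8 were lower and none was higher, with a median of -0.75, and 1 library decided much of this count: 5, 3, 2 and 5 were past the threshold with 1 left out. Crabp1, the cellular carrier of retinoic acid, had 5086 and 5116 in WT versus 351 and 289.7 in KO (log2 change -3.99, SE 0.51, limma adjusted p 0.000285). Cyp26b1, which degrades retinoic acid, had 18735 and 38733 in WT versus 4198 and 4334 in KO (log2 change -2.66, SE 0.78, limma adjusted p 0.0285). Cyp26a1, also a degrading enzyme and the gene that answers retinoic acid most directly, had 11284 and 13264 in WT versus 16825 and 8829 in KO (log2 change -0.01, SE 0.67, adjusted p 0.997). The values of this direct target of the ligand overlapped between the genotypes, whereas those of Crabp1 and Cyp26b1 lay apart. The receptor Rara (3166 and 3949 in WT versus 3152 and 1914 in KO, adjusted p 0.185) did not pass, and the receptor gene Rarb, itself a target, had 5798 and 7403 in WT versus 1461 and 1487 in KO (log2 change -2.15, adjusted p 0.0123). Calls that ended when 1 library was left out were those of Cyp26b1 (any 1 of the 4, limma adjusted p up to 0.176) and Rarb (WT replicate 2 or KO replicate 1 or KO replicate 2, limma adjusted p up to 0.0844). In the promoter of Cyp26a1 (RefSeq, GRCm38.p6, chr19:37697688-37697807, plus strand, 120 bases before the start) the capitals mark the hexamer AGTTCA on the opposite strand, beginning 32 and 21 bases before the start, and retinoic acid receptors bind a pair of such hexamers. The hexamer on either strand was found in 9.86% of the promoters of all tested genes with a RefSeq entry, 10.9% of the higher and 8.04% of the lower set.
Cyp26a1: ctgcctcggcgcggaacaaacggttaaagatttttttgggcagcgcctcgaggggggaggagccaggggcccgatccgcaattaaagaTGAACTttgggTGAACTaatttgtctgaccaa

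Hox genes split by their place in the clusters. Of 15 tested anterior genes (paralogue groups 1 to 5) 10 were lower and none was higher, with a median log2 change of -2.22, and of 17 tested posterior genes (groups 6 to 13) 4 were lower and 6 higher, with a median of 0.08. Hoxd4 had 1382 and 1259 in WT versus 89.7 and 39.4 in KO (log2 change -4.45, SE 0.89, limma adjusted p 0.00402). Hoxd3 had 4788 and 6233 in WT versus 409 and 159.8 in KO (log2 change -4.41, SE 0.79, limma adjusted p 0.00206). At the posterior end Hoxc10 had 2.1 and 1.1 in WT versus 47.5 and 182 in KO (higher by at least 36.3-fold, limma adjusted p 0.00184). Hoxc13 had 13.7 and 8.5 in WT versus 83.4 and 137 in KO (log2 change 3.20, SE 0.53, limma adjusted p 0.00131). Within the HoxC cluster the sign thus turned between Hoxc4 (3966 and 4406 in WT versus 983 and 585 in KO, -2.46) and Hoxc8 (47.3 and 43.4 in WT versus 482 and 681 in KO, 3.63). In HoxA the genes lower in KO reached Hoxa6 (806 and 1522 in WT versus 242 and 246 in KO, -2.18), and in HoxB they included Hoxb6 (4241 and 5902 in WT versus 1144 and 703 in KO, -2.48), Hoxb8 (3581 and 4993 in WT versus 429 and 178 in KO, -3.93) and Hoxb9 (5724 and 7120.3 in WT versus 997 and 599.7 in KO, -3.04). Hoxb1, which responds early to retinoic acid, had 1044 and 601 in WT versus 4478 and 3351 in KO and did not pass (adjusted p 0.0698). Exons overlap between Hoxd3 and Hoxd4 and between Hoxb7 and Hoxb8, and the kit does not mark strand, so reads of such neighbours and of antisense partners cannot be told apart. Among the genes named here, the call ended with 1 library left out for Hoxc4 (WT replicate 2 or KO replicate 2, limma adjusted p up to 0.0626), Hoxa6 (any 1 of the 4, limma adjusted p up to 0.213), Hoxb6 (any 1 of the 4, limma adjusted p up to 0.128), Hoxb8 (KO replicate 2, limma adjusted p 0.0513) and Hoxb9 (WT replicate 2 or KO replicate 2, limma adjusted p up to 0.0513).

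The Hox count rested on settings more than most. The total of 20 called genes became 10, 7, 15 and 5 with 1 library left out, 7 with a pseudocount of 0.1, 13 without a filter on low values and 13 without the chromosomes named above, of which chromosome 11 carries HoxB.

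**Figure D3:**
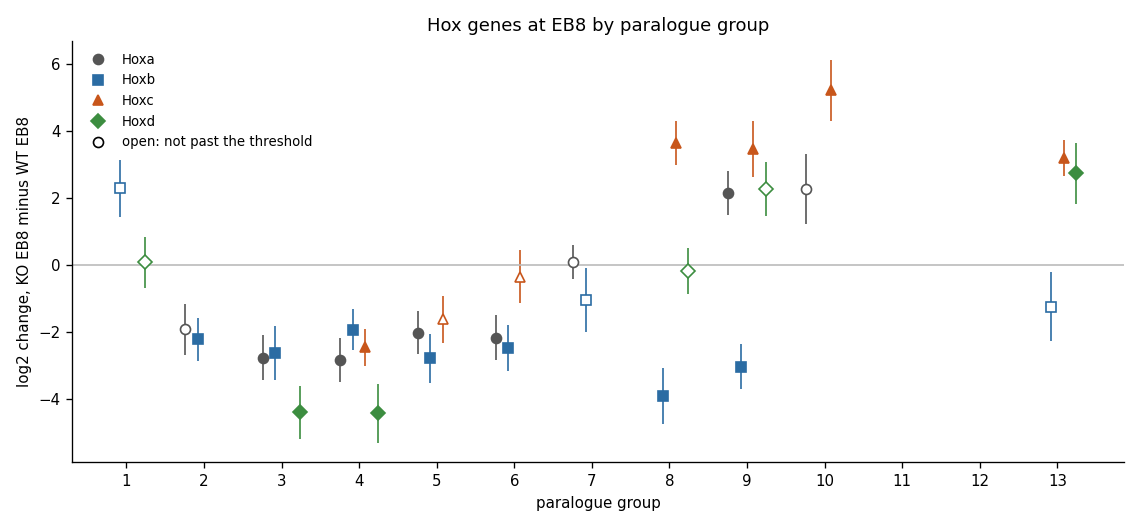
Log2 change at EB8 (KO minus WT) with its standard error for 31 of the 32 tested Hox genes by paralogue group, with filled points past the threshold. Filled points lie below 0 for anterior groups in all clusters, for Hoxa6 and for the B cluster from Hoxb2 to Hoxb9 apart from group 7. They lie above 0 for the C cluster from group 8 on, for Hoxa9 and for Hoxd13. The anterior Hoxb1 is an open point above 0.

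Pluripotency factors were the mirror image of the neural lists. Of 25 tested members 19 were higher in KO and none was lower, with a median log2 change of 2.98, and 17, 16, 17 and 17 passed with 1 library left out. The list summed to 13225.2 and 13976.9 normalised counts in the WT libraries and 57013.6 and 53042.6 in KO. Nanog, a core factor, had 118 and 313 in WT versus 7989 and 8408 in KO (log2 change 5.41, SE 0.55, limma adjusted p 7.67e-05). Esrrb, an orphan receptor of naive ESCs, had 199.5 and 349 in WT versus 5511 and 5325 in KO (log2 change 4.35, SE 0.33, limma adjusted p 1.44e-05). Prdm14, which keeps that state and acts in primordial germ cells, had 8.4 and 24.4 in WT versus 372 and 323 in KO (log2 change 4.49, SE 0.67, limma adjusted p 0.000716). Pou5f1 changed by 3.94, Zfp42 by 2.93, Klf2 by 3.50, Nr5a2 by 4.01 and Tcl1 by 4.93. Klf4, another naive factor, had 474 and 228 in WT versus 454 and 583 in KO and did not pass (adjusted p 0.448). Among epiblast genes Fgf5 (87.2 and 97.4 in WT versus 124 and 138 in KO, adjusted p 0.479), Otx2 (44.1 and 178 in WT versus 111 and 132 in KO, 0.586) and Dnmt3b (947 and 665 in WT versus 1790.4 and 1557 in KO, 0.0652) did not pass either. By group, 8 of 9 core, 10 of 11 naive and 1 of 5 epiblast genes tested were higher, the last being Nodal. The core factor Sox2 did not pass (log2 change 0.15). All 5 epiblast genes had a positive log2 change of at least 0.44, and both KO values lay above both WT values for 4. Dnmt3b passed under 6 other settings, so this count does not set the epiblast genes apart. With 1 library left out, calls were lost for Zfp42 (WT replicate 2 or KO replicate 2, limma adjusted p up to 0.131).

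The promoter of Nanog (RefSeq, GRCm38.p6, chr6:122707369-122707488, plus strand, 120 bases before the start) is shown because its octamer-like letters are read by Pou5f1, whose RNA was higher in the same libraries. The capitals mark ATGCAAA, which lies on the opposite strand from 75 bases before the start. ATGCAAA on either strand was found in 3.33% of the promoters of all tested genes, 4.13% of the higher and 3.62% of the lower set.
Nanog: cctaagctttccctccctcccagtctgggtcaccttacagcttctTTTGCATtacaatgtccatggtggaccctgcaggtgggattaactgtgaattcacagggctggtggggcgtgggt

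A wider list of genes enriched in ESCs, the Dppa genes included, was higher for 21 of 28 tested, with none lower, a median log2 change of 3.44 and 18, 20, 19 and 21 past with 1 library left out. Dppa5a, an RNA-binding protein of ESCs, had 98.7 and 246 in WT versus 5686 and 6976 in KO (log2 change 5.33, SE 0.55, limma adjusted p 9.18e-05). L1td1, an RNA-binding protein derived from a LINE element, had 236 and 201 in WT versus 3096 and 3751 in KO (log2 change 3.96, SE 0.28, limma adjusted p 9.86e-06). Ooep, a protein of the oocyte cortex, changed by 4.77, and the metallothioneins Mt1 and Mt2 by 3.31 and 4.02. Genes that ESCs share with many cells, such as Trim28 (21127 and 21287 in WT versus 21032 and 19691 in KO, adjusted p 0.877), Rif1 (7936 and 6415 in WT versus 9967 and 10244 in KO, 0.0548) and Phc1 (3102 and 3336 in WT versus 3807 and 3430.1 in KO, 0.615), did not pass. Zscan4c and Zscan4d, which flicker in ESC cultures, had 11.6 and 3.2 in WT versus 39 and 467 in KO and 24.2 and 3.2 in WT versus 92.8 and 850.1 in KO and did not pass either (adjusted p 0.06 and 0.0574).

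The miR-290 cluster, a run of ESC microRNAs made from a single transcript, rose with these genes. All 7 tested hairpin entries of the cluster (Mir290, 291a, 291b, 292, 293, 294 and 295, chromosome 7, 3218627 to 3220842, plus strand, NCBI37) were higher in KO, and 6 of them were at the floor in both WT libraries. Mir295 had 1.1 and 0 in WT versus 100.2 and 77.8 in KO (higher by at least 28.1-fold, limma adjusted p 4.30e-05). Mir294 had 0 and 3.2 in WT versus 77 and 70.3 in KO (higher by at least 23.3-fold, limma adjusted p 0.000736). Reads in polyadenylated RNA come from the precursor transcript, and the mature microRNAs were not measured. With 1 library left out 6, 5, 5 and 6 of the entries passed. RefSeq had mature sequences for 6 of the 7 entries. The 3p arms below, in which the capitals mark the seed (bases 2 to 8), are shown because the first 3 of them share the seed AAGUGCU, while miR-291b-3p differs from it in its last base.
miR-291a-3p: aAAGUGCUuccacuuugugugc
miR-294-3p: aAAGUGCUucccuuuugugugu
miR-295-3p: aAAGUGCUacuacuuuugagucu
miR-291b-3p: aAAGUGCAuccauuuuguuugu

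Of 13 tested enzymes of DNA methylation and demethylation 1 was higher and 3 were lower, beside 10.4% and 12.5% of all tested genes. Dnmt3l, the cofactor of de novo methylation in germ cells and ESCs, had 144 and 68.8 in WT versus 2206 and 1519 in KO (log2 change 4.19, SE 0.49, limma adjusted p 0.000178). Tet3, a demethylase of neural cells, had 4707 and 6279.6 in WT versus 1243 and 2172 in KO (log2 change -1.73, SE 0.49, limma adjusted p 0.0241). Gadd45g had 1097 and 1391 in WT versus 367 and 162 in KO (log2 change -2.34, SE 0.43, limma adjusted p 0.00238). Dnmt1, which copies methylation after replication, was lower by a small step (11570.2 and 11479 in WT versus 7995 and 8262 in KO, log2 change -0.50, adjusted p 0.0373). Without WT replicate 1, WT replicate 2 or KO replicate 1 the count of 4 fell to 2. Leaving out 1 library ended the calls of Tet3 (WT replicate 1 or WT replicate 2 or KO replicate 1, limma adjusted p up to 0.166) and Dnmt1 (any 1 of the 4, limma adjusted p up to 0.144).

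Germline genes were higher for 22 of 35 tested and lower for none, with a median log2 change of 2.70. This list depended on single libraries, with 20, 9, 10 and 14 past the threshold when 1 was left out. It summed to 8608.9 and 6070 normalised counts in the WT libraries and 25499.9 and 24564.4 in KO. Rnf17, a Tudor protein of germ cell granules, had 236 and 299.6 in WT versus 1911 and 1571 in KO (log2 change 2.70, SE 0.30, limma adjusted p 0.000144). Hormad1, of the meiotic chromosome axis, had 16.8 and 10.6 in WT versus 149 and 280.2 in KO (log2 change 3.84, SE 0.81, limma adjusted p 0.00532). Dmc1, the recombinase of meiosis, had 132 and 129 in WT versus 528 and 598 in KO (log2 change 2.09, SE 0.44, limma adjusted p 0.00507). By role, 7 of 13 meiosis genes and 15 of 22 genes of germ cell RNA and the piRNA pathway were called. Taf7l, a germ cell relative of the TFIID subunit Taf7, had 53.6 and 37.1 in WT versus 561 and 503 in KO (log2 change 3.55, SE 0.88, limma adjusted p 0.0128) and lies on the X chromosome. Stk31, a Tudor kinase of germ cells, changed by 3.43 and Tdrd12, of the piRNA pathway, by 3.71. Sycp3, of the synaptonemal complex, had 57.8 and 3.2 in WT versus 98.1 and 249 in KO (adjusted p 0.0846) and Ldhc, the testis lactate dehydrogenase, 0 and 5.3 in WT versus 16.9 and 3.2 in KO (0.297), and neither passed. Several of these genes are also expressed in ESCs. Calls that ended when 1 library was left out were those of Taf7l (WT replicate 2 or KO replicate 1 or KO replicate 2, limma adjusted p up to 0.0796).

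Among signalling pathways the Nodal and Lefty genes stood out, with 7 of 9 tested genes higher and none lower (median 3.31; 5, 7, 6 and 7 with 1 library left out). Nodal, the ligand of the epiblast and streak, had 33.6 and 65.6 in WT versus 819.8 and 963 in KO (log2 change 4.21, SE 0.31, limma adjusted p 1.37e-05). Lefty2, its secreted antagonist and target, had 5.3 and 25.4 in WT versus 499 and 549.7 in KO (log2 change 5.35, SE 0.69, limma adjusted p 0.000301). Lefty1 had 11.6 and 30.7 in WT versus 549.7 and 726 in KO (log2 change 4.99, SE 0.72, limma adjusted p 0.000584). Ligand, cofactor and antagonists were thus all raised in both KO libraries, with Tdgf1, the coreceptor, changed by 2.88 and Foxh1, the nuclear partner of the pathway, by 3.31. Among the genes named here, the call ended with 1 library left out for Tdgf1 (WT replicate 1, limma adjusted p 0.0686, log2 change 1.84 without WT replicate 1).

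FGF genes moved both ways, with 6 higher and 5 lower of 25 tested (8, 7, 9 and 9 with 1 library left out). Fgf4, the ESC ligand, had 7.4 and 61.4 in WT versus 450.5 and 898 in KO (log2 change 4.80, SE 0.83, limma adjusted p 0.00174). Fgf15, a ligand of the neural tube, had 106 and 91.1 in WT versus 1.1 and 6.4 in KO (log2 change -4.67, SE 0.59, limma adjusted p 0.000279). Fgfr3, a receptor of ventricular zone progenitors, had 2408 and 2875 in WT versus 208 and 218 in KO (log2 change -3.62, SE 0.41, limma adjusted p 0.000153). The feedback and target genes Etv4 and Etv5 changed by 2.72 and 3.20. Fgfr1 (4126 and 3152 in WT versus 4662 and 5508 in KO, adjusted p 0.155) and Dusp6 (935 and 1468 in WT versus 1807 and 2843 in KO, 0.197) did not pass.

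Of 39 tested Wnt pathway genes 13 were lower and 3 higher, with a median of -0.62 and counts of 8, 10, 7 and 9. Sfrp2, a secreted Wnt antagonist of the neural tube, had 2759.7 and 2464 in WT versus 174 and 272 in KO (log2 change -3.58, SE 0.44, limma adjusted p 0.000239). Porcn, which acylates Wnt proteins, was higher at 604 and 577 in WT versus 3916 and 12024 in KO (log2 change 3.54, SE 0.66, limma adjusted p 0.00272) and lies on the X chromosome. The receptor Fzd3 changed by -2.64, and the direct targets Axin2 (1004 and 1072 in WT versus 766 and 460.2 in KO, adjusted p 0.197) and Lef1 (118 and 227 in WT versus 291 and 229 in KO, 0.399) did not pass. Of 15 tested Hedgehog genes 8 were lower and none higher (median -1.05; 6, 6, 6 and 7 with 1 library left out). Ptch1, receptor and target, had 6708 and 6629 in WT versus 3741 and 3297 in KO (log2 change -0.92, SE 0.18, limma adjusted p 0.00355), and Boc, a coreceptor, 3057 and 3568 in WT versus 386 and 322 in KO (log2 change -3.22, SE 0.40, limma adjusted p 0.000245). Gli1, the target most often used as a readout, had 1498 and 955 in WT versus 273 and 313 in KO and did not pass (adjusted p 0.0605).

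BMP and Id genes were lower for 4 and higher for 1 of 19 tested (2, 3, 4 and 4 with 1 library left out, and 9 by DESeq2). Nog, a BMP antagonist, had 104 and 98.5 in WT versus 28.5 and 4.3 in KO (log2 change -3.04, SE 0.98, limma adjusted p 0.0414), and Id4 changed by -2.23. Id1, a general BMP target, had 1134 and 1025 in WT versus 1151 and 699 in KO (adjusted p 0.807). Over all tested genes 10.4% were called higher and 12.5% lower. With 1 library left out, calls were lost for Nog (WT replicate 1 or WT replicate 2 or KO replicate 2, limma adjusted p up to 0.291, log2 change -1.79 without KO replicate 2). In the LIF and Stat3 list 2 of 10 tested genes were higher, a count that became 1, 0, 2 and 1 with 1 library left out. The feedback target Socs3 had 385 and 879.8 in WT versus 1074 and 418 in KO (adjusted p 0.883).

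Markers of other lineages differed by list, beside 10.4% of all genes called higher and 12.5% called lower. Of 23 tested primitive streak and mesoderm factors 2 were higher, namely Eomes with 23.1 and 12.7 in WT versus 471 and 362 in KO (log2 change 4.51, SE 0.49, limma adjusted p 0.000127) and Mesp2 (2.60). T (Brachyury), which marks the streak, had 6.3 and 3.2 in WT versus 8.4 and 38.3 in KO and did not pass (adjusted p 0.251). The streak count was 2, 1, 2 and 2 with 1 library left out. Of 21 endoderm genes 4 were lower, among them the floor plate factors Foxa1 and Foxa2 named above, and 1 was higher (4, 2, 3 and 4 with 1 left out). The endoderm factor Sox17 and Cxcr4 were also among the lower ones, and the higher one was Apoe. With 1 library left out the log2 change of Sox17 ran from -2.93 to -2.42 and that of Apoe from 0.96 to 1.27. The calls of Sox17, Cxcr4 and Apoe, too, could end in such fits. Gata4 (363 and 254 in WT versus 149 and 230.1 in KO, adjusted p 0.373) and Dab2 (789.7 and 469 in WT versus 594 and 773 in KO, 0.857), of primitive endoderm, did not pass. Trophoblast factors were higher for 6 of 16 tested and lower for none, with a median of 1.24 and counts of 5, 3, 3 and 6. Esx1, a placental homeobox factor on the X chromosome, had 77.7 and 200.1 in WT versus 1750.4 and 498 in KO (log2 change 2.89, SE 0.90, limma adjusted p 0.0362). Sox15, of trophoblast giant cells and ESCs, had 8.4 and 8.5 in WT versus 472 and 214 in KO (log2 change 5.08, SE 0.35, limma adjusted p 9.86e-06). Cdx2, which founds the trophoblast lineage, had 31.5 and 45.5 in WT versus 144 and 58.6 in KO (adjusted p 0.511) and Elf5 48.3 and 155 in WT versus 88.6 and 56.5 in KO (0.815), so these defining factors were not past the threshold. Leaving out 1 library ended the calls of Mesp2 (WT replicate 2 or KO replicate 2, limma adjusted p up to 0.0808) and Esx1 (WT replicate 1 or WT replicate 2 or KO replicate 1, limma adjusted p up to 0.243).

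Epithelial genes were higher for 7 of 29 tested and lower for none (median 0.31; 3, 3, 3 and 8 with 1 library left out). Cdh1, the epithelial cadherin, had 9823 and 3749 in WT versus 8145 and 8905 in KO (adjusted p 0.505) and Epcam 2874 and 2728 in WT versus 4521 and 2994 in KO (0.177), and neither passed. Of 14 mesenchymal and cadherin switch genes 5 were lower and 1 was higher (3, 3, 3 and 4) with 1 library left out. Zeb2, a repressor that neural cells also need, had 3182 and 3738 in WT versus 391 and 461 in KO (log2 change -3.02, SE 0.52, limma adjusted p 0.00174), and Cdh11 changed by -2.05. None of the fibroblast markers was higher and 1 of 14 tested was lower, Acta2, the smooth muscle actin, with 298 and 246 in WT versus 11.6 and 103 in KO (log2 change -2.91, adjusted p 0.0434) (0, 0, 0 and 2 past with 1 left out). Of 15 tested genes of blood, endothelium and muscle 4 were higher and 2 lower (5, 3, 1 and 5). Pecam1, an endothelial adhesion protein that ESCs also carry, had 197 and 224 in WT versus 2236 and 1337 in KO (log2 change 3.03, SE 0.68, limma adjusted p 0.00735). Cdh5, the endothelial cadherin, had 262 and 237 in WT versus 140.3 and 546 in KO (adjusted p 0.901), and the leukocyte gene Ptprc was under the filter. Neural crest and border factors were higher for 3 and lower for 3 of 13 (2, 3, 3 and 4). Foxd3, a forkhead factor of crest cells, had 117 and 330.3 in WT versus 45.4 and 10.7 in KO (log2 change -3.09). Erbb3, the neuregulin receptor, had 835 and 814 in WT versus 2900.4 and 2105 in KO (1.58). Brain patterning factors were lower for 5 and higher for 1 of 21 (5, 3, 5 and 4). Pbx3, a Hox cofactor, changed by -2.14. Calls that ended when 1 library was left out were those of Acta2 (WT replicate 1 or WT replicate 2 or KO replicate 1, limma adjusted p up to 0.352, log2 change -1.38 without KO replicate 1, log2 change -4.43 without KO replicate 2), Pecam1 (KO replicate 1, limma adjusted p 0.0605), Foxd3 (WT replicate 2 or KO replicate 2, limma adjusted p up to 0.0706) and Erbb3 (WT replicate 1 or WT replicate 2 or KO replicate 1, limma adjusted p up to 0.0993).

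Genes of cell division were set apart by kind. The D cyclins did not move together. Ccnd2, a cyclin of progenitors, had 40499.8 and 31206 in WT versus 1863 and 2700.4 in KO (log2 change -3.99, SE 0.59, limma adjusted p 0.000665). Ccnd1 had 7111 and 5281 in WT versus 561 and 1346 in KO (log2 change -2.82, SE 0.47, limma adjusted p 0.00134). Ccnd3, in contrast, had 3962 and 3261 in WT versus 9110.5 and 5227 in KO and was called higher (log2 change 0.94, SE 0.29, limma adjusted p 0.0322). Over the whole list of G1 cyclins, kinases and inhibitors 5 of 15 were lower and 1 was higher (5, 2, 4 and 5 with 1 library left out). The inhibitor Cdkn1a had 2941 and 2606 in WT versus 3945 and 3736 in KO (adjusted p 0.262). Of 31 tested DNA replication genes 1 was higher, 1 was lower and 29 did not pass, with a median whose sign turned under another scaling. The helicase subunit Mcm2 had 8518 and 7918 in WT versus 5332 and 7671 in KO (adjusted p 0.436), and the clamp Pcna 6681 and 7061 in WT versus 4271 and 5470.0 in KO (0.133). Of 21 p53 and target genes 6 were higher and none lower (2, 3, 3 and 3 with 1 library left out). Trp53inp1, a stress protein and p53 target, had 5102 and 4659 in WT versus 12901 and 19414 in KO (log2 change 1.70, SE 0.29, limma adjusted p 0.00152). Among the genes named here, the call ended with 1 library left out for Ccnd3 (WT replicate 1 or WT replicate 2 or KO replicate 1, limma adjusted p up to 0.265, log2 change 0.54 without KO replicate 1).

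Among chromatin regulators the subunits of BAF, the remodeller that progenitors rebuild as they become neurons, were lower for 9 of 20 tested and higher for none (median -0.74). Bcl11a, a subunit of neural and blood cells, had 855 and 1076 in WT versus 79.1 and 124 in KO (log2 change -3.26, SE 0.49, limma adjusted p 0.000716). Bcl7a had 3725 and 5062 in WT versus 980.2 and 1104 in KO (log2 change -2.06, SE 0.22, limma adjusted p 0.000117), while Smarca4, the ATPase, changed by -0.82 (adjusted p 0.00289). Of 18 Polycomb genes 4 were higher and 3 lower, beside 10.4% and 12.5% of all tested genes. Phf19, which recruits the complex in ESCs, had 64.1 and 107 in WT versus 1469.7 and 522 in KO (log2 change 3.39, SE 0.55, limma adjusted p 0.00121). Cbx7, the ESC chromobox subunit, had 1105 and 1023 in WT versus 5764 and 4693 in KO (log2 change 2.29, SE 0.20, limma adjusted p 3.03e-05). Ezh2, the methyltransferase, had 6077 and 6687 in WT versus 3572 and 4603 in KO (log2 change -0.65, SE 0.19, limma adjusted p 0.0257). The 2 groups together had 11, 8, 10 and 9 past the threshold with 1 library left out. With 1 library left out, calls were lost for Ezh2 (WT replicate 1 or WT replicate 2 or KO replicate 1, limma adjusted p up to 0.189).

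Genes of the general transcription machinery were set beside the shares over all genes, 10.4% called higher and 12.5% called lower. Of 18 tested TFIID subunits 3 were higher and none lower. Taf5, a subunit of the core, had 818 and 949.7 in WT versus 1544 and 1526 in KO (log2 change 0.80, SE 0.18, limma adjusted p 0.00817). Taf4b, the paralogue of Taf4a, changed by 1.10 (adjusted p 0.004) and Taf7 by 1.17 (0.00568). Tbp, the TATA-binding protein, had 1589 and 1419.8 in WT versus 1259 and 1465 in KO (adjusted p 0.511). Taf1, the largest subunit, had 4151 and 4098 in WT versus 3441 and 4976 in KO (0.995), and Taf12, the partner of Taf4, had 713 and 575 in WT versus 729 and 937 in KO (0.204). Quantile normalisation brought 6 subunits past the threshold and upper-quartile rescaling 5. Of 43 Mediator subunits and other general factors 4 were higher and 1 was lower (3, 3, 4 and 2 with 1 library left out). Polr2a, the largest subunit of RNA polymerase II, had 11229.9 and 12179 in WT versus 26223 and 24147 in KO (log2 change 1.11, SE 0.31, limma adjusted p 0.0226). Med1, a Mediator subunit, had 3966 and 3167 in WT versus 4357 and 3547 in KO (adjusted p 0.679). Leaving out 1 library ended the calls of Taf5 (WT replicate 1, limma adjusted p 0.0638), Taf7 (WT replicate 2, limma adjusted p 0.0658) and Polr2a (any 1 of the 4, limma adjusted p up to 0.105).

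None of 26 tested nuclear-encoded respiratory chain genes passed by limma. Atp5b, the beta subunit of ATP synthase, had 29235 and 31558 in WT versus 33953 and 30418 in KO (adjusted p 0.736). With quantile normalisation 4 passed, with the replicate block 2, by edgeR 0 and by DESeq2 0. At an unadjusted limma p under 0.05 there were 3. Of 23 glycolysis genes 2 were higher and 1 lower (2, 1, 5 and 2 with 1 library left out). Ldhb, a subunit of lactate dehydrogenase, had 2438 and 3381 in WT versus 10975 and 7395 in KO (log2 change 1.65, SE 0.46, limma adjusted p 0.023). Gapdh had 27973 and 27591 in WT versus 34680.0 and 21065 in KO (adjusted p 0.922). Growth genes of the fetus and of imprinted loci were lower for 5 and higher for 2 of 25 (4, 4, 2 and 6). Mycn, the Myc factor of neural progenitors, had 3503 and 4026 in WT versus 1278 and 973 in KO (log2 change -1.75, SE 0.37, limma adjusted p 0.00528). Calls that ended when 1 library was left out were those of Ldhb (WT replicate 1 or WT replicate 2 or KO replicate 1, limma adjusted p up to 0.143).

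The same contrast at EB5, after 1 day of retinoic acid, called 350 genes higher (2.17%) and 350 lower (2.17%), so that far more genes were past the threshold at EB8. Of the genes higher at EB8 285 (17.0%) were also higher at EB5, which was 81.4% of the EB5 set, and of those lower at EB8 266 (13.2%) were also lower at EB5, 76% of that set. Both stages used libraries of the same lines, so the 2 contrasts are not independent. The 6 genes lower at EB8 and higher at EB5 were Ckb, Hoxb9, Nkx1-1, Kirrel2, Tubb3 and A930011O12Rik, named because they were so few, and none was higher at EB8 and lower at EB5. Hoxb9 had 36.7 and 59.3 in WT versus 643 and 317 in KO at EB5 and 5724 and 7120.3 in WT versus 997 and 599.7 in KO at EB8. Among the genes named here, the call ended with 1 library left out for Hoxb9 (WT replicate 2 or KO replicate 2, limma adjusted p up to 0.0513).

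The difference between the KO effects at the 2 stages was tested by an interaction term and passed for 126 genes, 16 more positive (0.0992%) and 110 more negative (0.682%) at EB8. This count moved with every library left out, to 60, 13, 74 and 45. Robo3 had 5.6 and 2.2 in WT versus 15.2 and 14.5 in KO at EB5, where it did not pass (adjusted p 0.166), and the difference of its effects was -8.09 (SE 0.98, limma adjusted p 0.00488). Neurog2 had 0 and 2.2 in WT versus 6.6 and 0 in KO at EB5, with a difference of -7.89 (SE 1.41, limma adjusted p 0.0258). In both genes the WT values were at most 5.6 at EB5 and at least 553 at EB8, while the KO values were at most 63.3 at either stage. Nodal went the other way: it had 1264 and 1172 in WT versus 1698 and 1672 in KO at EB5, and 33.6 and 65.6 in WT versus 819.8 and 963 in KO at EB8 (difference 3.74, SE 0.44, limma adjusted p 0.00488). Foxh1 and L1td1, with differences of 4.04 and 2.58, are ESC genes whose effects also differed in this direction.

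Against ESCs, which had not been induced, the difference of the KO effects passed for 1175 genes, 620 more positive (3.85%) and 555 more negative (3.44%) at EB8, and for 794, 513, 653 and 695 with 1 EB8 library left out. Nanog had 6242 and 22357 in WT versus 18212 and 16742 in KO ESCs, and at EB8 the KO libraries held 7989 and 8408 against 118 and 313 in WT. Mir295 had 81.9 and 276 in WT versus 80.5 and 124 in KO ESCs. KO embryoid bodies at EB8 thus kept RNA of ESC genes that was present in ESCs of both genotypes. For Nanog the levels at EB8 were below those of KO ESCs and lay between those of the WT ESC libraries. Dbx1 was at the floor in ESCs of both genotypes and had 612 and 1631 in WT versus 2.8 and 0 in KO at EB5, so that WT alone was above the floor there and at EB8.

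**Figure D4:**
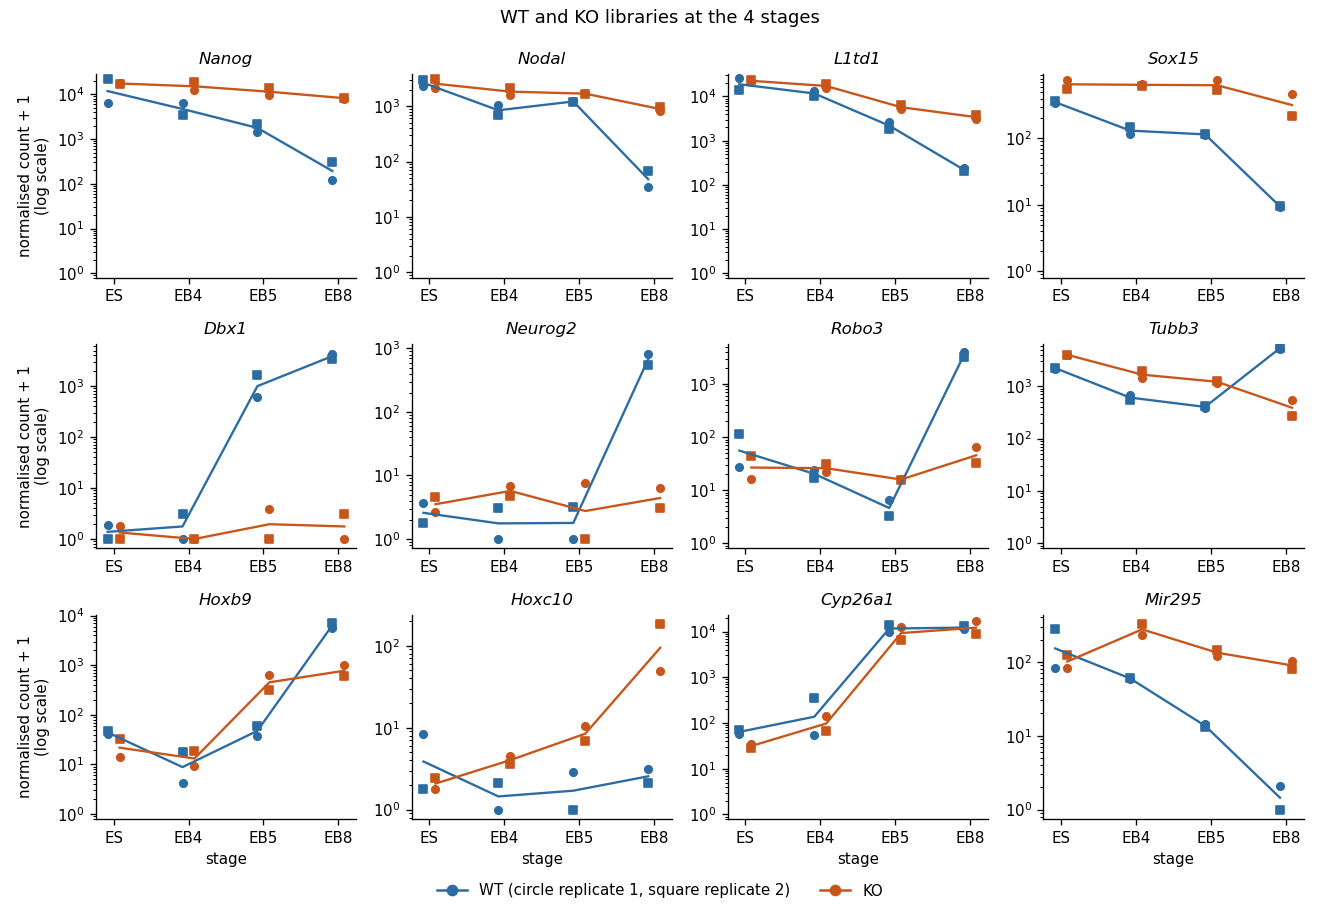
Normalised read count + 1 (log axis) of 12 genes in ESCs, EB4, EB5 and EB8, with 1 point per library, lines through the geometric means, WT in blue and KO in orange. At EB8 the WT line lies above the KO line for Neurog2, Robo3, Tubb3, Hoxb9 and, from EB5 on, Dbx1. The KO line lies on top for Nanog, Nodal, L1td1, Sox15, Mir295 and Hoxc10, and the lines of Cyp26a1 meet at EB8.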

How the data were processed

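Polyadenylated RNA of ESCs and embryoid bodies (EB4, EB5 and EB8) was sequenced, with 2 libraries for each of 2 genotypes and 4 stages. The submitters' processing notes name CASAVA 1.7 and 1.8, TopHat2 2.0.10, HTSeq 0.5.4p3 and DESeq2 1.0.19 and the mouse build mm9 (NCBI37), and the annotation release and strand setting are not given in the sources used here. The deposited table, made by the authors, holds a signal per gene, namely reads divided by the size factor of the library. Whole reads were recovered for 100% of values (tolerance 0.01). Depth at EB8 ran from 22442118 to 25792412 reads, so counting error limits only genes with few reads.

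Values were set as log2(normalised count + 1), genes with a mean of at least 10 were kept, and limma 3.58.1 (R 4.3.3; eBayes with trend, group means of all 8 groups, 8 residual and 4.27 prior degrees of freedom) gave the contrasts, with Benjamini-Hochberg adjustment over 16124 genes and a threshold of 0.05. The fit was tested on simulated data. Groups came from the labels. Alternatives were pseudocounts of 0.1 and 5, no filter, a stricter filter at a mean of 50, rescaling by upper quartiles, quantile normalisation, the EB8 groups alone, a replicate block, a shared correlation for libraries of like genotype and number, edgeR 4.0.16 and DESeq2 1.42.0 on recovered reads, a threshold of 0.01, a log2 change of at least 1, no genes of chromosomes X, Y, 8 and 11, and each EB8 library left out. Tables were made with Python 3.11.15 (pandas 2.3.3, numpy 2.4.6) and figures with matplotlib 3.10.9.

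The comparison and its 41 gene lists were chosen with earlier results of these data known. Of the listed genes 929 were found and 861 tested, and Sox1, Neurod6, Slc18a3, Serpina1a, Plet1, Gdf1 and Tbpl2 were not analysed here. Genes were named as key members of a list, as its largest rise or fall, or as 1 of the 10 largest rises or falls of protein-coding genes off X and Y that have a given name, whose values did not overlap and whose higher group had at least 200.0 normalised counts in both libraries. A few others are members of the described lists or are said to be chosen after their values were seen. Gene positions came from an NCBI37 annotation that held 27603 of the 27807 genes, and promoters and microRNAs from RefSeq (GRCm38.p6). Some members of the lists are not reported here by name.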

Additional observations from a re-analysis of the deposited data

Results flagged for a closer look

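The KO effect (KO minus WT, log2) differed between EB8 and EB5 for 126 genes and between EB8 and ESCs for 1175 genes by an interaction term in the limma fit (adjusted p under 0.05). These results stand here because the same contrast gave different values at 2 stages. Groups of 2 libraries are too small to look for a library that stands apart. The count against EB5 fell with each library left out: 13 genes passed without WT replicate 2, and 45, 60 and 74 without KO replicate 2, WT replicate 1 and KO replicate 1.

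Among the named genes the effect was lower at EB8 than at EB5 for factors of neuron birth, by -7.89 for Neurog2, -7.56 for St18, -3.66 for Gadd45g and -2.96 for the Notch ligand Dll1. The same held for neuronal genes, by -8.09 for Robo3, -7.00 for Actl6b, -6.62 for Dcx, -5.38 for Tubb3, -5.06 for Elavl3, -4.78 for Cntn2 and -3.74 for Elavl4. Ppp1r17 differed by -7.82 and Hk3, whose exons overlap those of Unc5a, by -4.87. Of progenitor and patterning genes, Hoxb9 differed by -6.29, Msx3 by -5.98, Shh by -5.52, Pou3f4 by -5.25, Sox3 by -3.28 and Ptch1 by -1.60. Where a gene was at or near the floor in 1 group, such as Neurog2 and Ppp1r17, these fitted differences depend on the pseudocount and are not bounds.

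The effect was more positive at EB8 for Sox15 (2.62), Mobp (2.96) and Nodal (3.74). In Nodal and Sox15 the WT level fell between the stages by more than the KO level did, as the plot of the stages shows.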

How the results depend on the processing

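At EB8 the count of 3697 genes stayed within 1.5 times under the other scalings, filters, pseudocounts, models, tools and an added limit on the fold, between 2736 and 4626. It was 1792 at a threshold of 0.01, and leaving out 1 library gave 1907 (WT replicate 2) to 2408 (KO replicate 2), each with fewer libraries to set the spread. Upper-quartile rescaling moved the median of all genes from -0.03 to 0.11 and the share of higher calls from 45.4% to 58.5%, and quantile normalisation to 0.05 and 54.4%. Medians near 0 (DNA methylation, REST, streak, mesenchymal, DNA replication, imprinted, epithelial splicing and forebrain genes) changed sign with the scaling. The difference from ESCs (1175 genes) became 2013 with a correlation within genotype and replicate number, 2330 by DESeq2, 268 at 0.01 and 513 (WT replicate 2) to 794 (WT replicate 1) with 1 library left out, and 68.2% of calls were positive with upper-quartile rescaling against 52.8%. The difference from EB5 (126 genes) became 225 with a pseudocount of 5, 245 with the correlation, 488 by DESeq2, 16 at 0.01 and 13 (WT replicate 2) to 74 (KO replicate 1) with 1 left out, and quantile normalisation gave 25.6% positive calls against 12.7%. Both differences need other stages, so they could not be run on the EB8 groups alone. The causes were not tested.

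Replicate differences of WT and KO at EB8 correlated at -0.133, which gave no sign that the numbers pair WT with KO libraries. This value cannot show whether a number stands for the same line over the stages of a genotype. Libraries of like genotype and number had a consensus correlation of 0.166. Fits that allowed for it gave 3795 genes at EB8, 2013 against ESCs and 245 against EB5. A replicate block gave 4081 genes at EB8, 1469 against ESCs and 180 against EB5, and with the KO numbers exchanged, chosen after seeing the data, 4154, 1591 and 167. Over the 41 lists, leaving out WT replicate 2 moved 23 counts by over 1.5 times, WT replicate 1, KO replicate 1 and KO replicate 2 moved 13, 14 and 11, and other settings 1 to 5. Of 171 named genes none reversed under any setting run, and 30, 21, 26 and 24 lost the threshold in the same 4 cases. With 2 libraries per group, changes of genes with few reads were not detectable unless large.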

Other observations

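Genes were also grouped by the stem of their symbols, into 91 stems with at least 15 tested members, after values had been seen, and the genes below were chosen with their values known. Ribosomal proteins, which build the ribosome in every cell, were among the stems with more lower than higher genes. Of 63 tested genes whose symbols begin with Rpl, 19 were lower and 2 higher in KO (median log2 change -0.45), and of 50 that begin with Rps, a few kinases among them, 17 were lower and 3 higher (median -0.40), against 12.5% lower and 10.4% higher over all genes. Rps29 had 7813 and 8683 normalised counts in WT versus 4906 and 4069 in KO (log2 change -0.88, SE 0.16, limma adjusted p 0.00234). This pattern depended on the processing: upper-quartile rescaling left 4 Rpl genes lower and 4 higher and 12 Rps genes lower, fitting the EB8 groups alone left 5 and 10 lower, and leaving out WT replicate 1, WT replicate 2, KO replicate 1 and KO replicate 2 left 6, 6, 5 and 5 lower Rpl and 7, 7, 9 and 10 lower Rps genes. A germline paralogue went the other way. Rpl10l, a testis form of Rpl10, had 32.6 and 20.1 in WT versus 662 and 943 in KO (log2 change 4.89, SE 0.63, limma adjusted p 0.000316).

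Of 18 tested cadherins 7 were lower and 1 was higher (median log2 change -1.26, with 4, 4, 4 and 6 lower when 1 library was left out in the order above). Cdh8, a cadherin of neurons, had 1913 and 892 in WT versus 24.3 and 45.8 in KO (log2 change -5.25, SE 0.62, limma adjusted p 0.000196). Cdh22 had 130.2 and 220.2 in WT versus 6.3 and 18.1 in KO (log2 change -3.85, SE 0.64, limma adjusted p 0.0014), and Cdh15, the muscle cadherin, had 9.5 and 7.4 in WT versus 60.1 and 74.6 in KO (log2 change 2.86, SE 0.58, limma adjusted p 0.00424). Cdh8 and Cdh15 lie on chromosome 8, whose level was raised in WT replicate 1. Without the genes of chromosomes X, Y, 8 and 11, 11 cadherins were tested, of which 4 were lower and 0 higher. The part of that level was not tested beyond this count. In the Trim family, largely ubiquitin ligases, 12 of 46 were higher and 4 lower. Leaving out 1 library gave 7, 4, 4 and 6 higher and 4, 4, 3 and 4 lower, no filter gave 6 higher and 4 lower, and fitting the EB8 groups alone turned the balance to 5 higher and 6 lower. Trim6 had 563 and 540.0 in WT versus 2611 and 4365 in KO (log2 change 2.61, SE 0.29, limma adjusted p 0.000134), and the neuronal Trim67, also on chromosome 8, had 318 and 315.5 in WT versus 17.9 and 4.3 in KO (log2 change -4.99, SE 0.71, limma adjusted p 0.000558).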
